A study of Mus musculus with 14 samples.

Results

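A set of 7 genes best known from striatal neurons were followed in RNAseq libraries of the mouse hippocampus: Drd2, Adora2a, Adcy5, Pde10a, Ppp1r1b, Rgs9 and Rarb. They were 7 of 24421 genes in the deposited count table and were taken by gene symbol. The genes had been proposed with their differences between the genotypes already known, so these differences are given here as a description and not as a test. The samples were hippocampi of untreated male mice, 7 labelled LPAR2-/- and 7 WT, with 1 library per mouse. The knockout allele lacks the latter part of exon 2 of Lpar2, which encodes a receptor for lysophosphatidic acid. The labels give the strain of both genotypes as 129.C57Bl6, and the methods describe the background as a mixture of C57BL/6 and 129/SvJ. Knockout mice were bred from homozygotes, separately from the WT mice, so that colony and genotype cannot be told apart. Ages are labelled as 10 to 12 weeks, whereas the deposited design text describes older mice, so the age is uncertain. The tissue is the hippocampus in the labels and methods, but the dentate gyrus in the results of the study, so the dissected region is uncertain as well.

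In the striatum, these genes belong to the medium spiny neurons, the GABAergic projection neurons that receive dense dopaminergic input. Dopamine and adenosine receptors on these neurons act in opposite directions on adenylyl cyclase, and the resulting cAMP drives protein kinase A until phosphodiesterases degrade it. The hippocampus contains far fewer dopamine terminals and no medium spiny neurons, but several of these genes are also transcribed in hippocampal neurons.

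All 7 genes were detected in every library, and none of them separated the genotypes. Drd2 had the largest difference, with a fitted level 30.9% higher in mice labelled LPAR2-/-, but 2 of these 7 mice lay at or below the lower WT values. Ppp1r1b and Rgs9 had fitted levels 13.6% and 13.2% higher, Pde10a a fitted level that was lower by a similar amount, and Adora2a, Adcy5 and Rarb differed by less than their spread between mice. Other genes of striatal neurons showed no common direction.

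RefSeq promoter sequence on the GRCm38.p6 assembly was found for 5 of the 7 genes, namely Drd2, Rgs9, Pde10a, Adcy5 and Rarb. Adora2a and Ppp1r1b had no entry. The 250 bases before the transcription start are shown for Drd2, which had the largest difference, for Rgs9 and Pde10a, the pair with the highest correlation in WT mice, which did not pass the adjusted test, and for Rarb, which is itself a target gene of retinoic acid. They lie directly upstream of a RefSeq start, which for Pde10a and Rarb is an internal start within the span of the gene in the count table, at chr9:49340153-49340402 on the plus strand for Drd2, at chr11:109298182-109298431 on the minus strand for Rgs9, at chr17:8801495-8801744 on the plus strand for Pde10a and at chr14:16575477-16575726 on the minus strand for Rarb. Sequences are written 5′ to 3′ in the direction of transcription. Capitals mark the GC box GGGCGG on either strand in Drd2, Rgs9 and Pde10a, and the retinoic acid element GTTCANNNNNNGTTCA in Rarb.
Drd2: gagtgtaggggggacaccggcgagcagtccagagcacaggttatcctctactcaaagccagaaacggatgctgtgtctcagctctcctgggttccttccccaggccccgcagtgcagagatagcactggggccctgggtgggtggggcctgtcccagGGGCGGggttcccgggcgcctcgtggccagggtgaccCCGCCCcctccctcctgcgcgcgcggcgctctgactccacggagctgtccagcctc
Rgs9: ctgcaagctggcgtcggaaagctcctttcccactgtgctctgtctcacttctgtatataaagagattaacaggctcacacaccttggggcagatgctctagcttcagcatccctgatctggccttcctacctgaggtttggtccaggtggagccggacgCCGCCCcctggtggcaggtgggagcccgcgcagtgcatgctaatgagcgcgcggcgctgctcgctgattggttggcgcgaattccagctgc
Pde10a: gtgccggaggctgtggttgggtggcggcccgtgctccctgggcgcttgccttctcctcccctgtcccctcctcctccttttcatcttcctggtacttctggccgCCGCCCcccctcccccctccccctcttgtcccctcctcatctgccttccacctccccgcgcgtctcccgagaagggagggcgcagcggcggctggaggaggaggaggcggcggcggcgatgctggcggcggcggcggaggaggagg
Rarb: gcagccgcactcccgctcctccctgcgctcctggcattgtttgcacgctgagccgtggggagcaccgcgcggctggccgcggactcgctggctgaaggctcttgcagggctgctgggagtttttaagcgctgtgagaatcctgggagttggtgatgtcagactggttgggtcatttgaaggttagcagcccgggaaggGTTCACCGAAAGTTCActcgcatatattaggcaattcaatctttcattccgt

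The retinoic acid element was searched only in the 1 form given above, which had been set as the motif to mark in Rarb. This form was found in the Rarb promoter 37 bases before the start, which is a description and no test. Among all promoters of the same length, 22 of 32851 held it (0.067%). It was not found in the other promoters of the 5 genes, and other forms of the element were not searched. The GC box was present 2 times for Drd2, 4 times for Adcy5, once for Rgs9 and once at this start of Pde10a, but not at a further start of Pde10a at chr17:8849735-8849984, and 32.7% of all promoters held at least 1 copy. The TATA box letters TATAAA occurred for Rgs9 only, 190 bases before the start and in lower case above, against 12.4% of all promoters. The cAMP response element TGACGTCA occurred in none of these promoters, against 1.55% of all promoters. All motifs were searched on both strands, and such matches describe the letters and not the binding of a factor.

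Between 15434620 and 23258949 reads per library were counted on genes. Lpar2 itself had 144 to 234 counts in libraries labelled LPAR2-/- and 27 to 66 counts in WT libraries, which goes against a lower level in the knockout. The counts cover all exons of Lpar2 together, so that they do not show whether the deleted part was transcribed, and the libraries are called by their labels throughout. Of 14897 genes tested across the genome with edgeR's quasi-likelihood test, 1009 passed a Benjamini-Hochberg adjusted p of 0.05, which is 6.77% of the genes (3.32% higher and 3.46% lower in mice labelled LPAR2-/-). The labels do not say whether the hippocampi were processed on different days.

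To compare levels between genes, CPM values (counts scaled to a common library total, with TMM factors) were divided by the counted exon length in kb. In WT mice the median level per length was 19.2 for Adcy5, 16 for Ppp1r1b, 9.82 for Pde10a, 2.62 for Rgs9, 2.11 for Rarb, 1.47 for Drd2 and 0.784 for Adora2a. The order of the medians was the same in mice labelled LPAR2-/-. The ranges of Adcy5 and Ppp1r1b overlapped in both genotypes, and so did those of Rarb and Drd2, whereas the other neighbours in this order did not overlap. By median, the receptors that define the indirect pathway neurons of the striatum, Drd2 and Adora2a, were thus the lowest of the 7 genes. The cyclase Adcy5 and the phosphatase inhibitor Ppp1r1b had the highest medians.

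**Figure D1:**
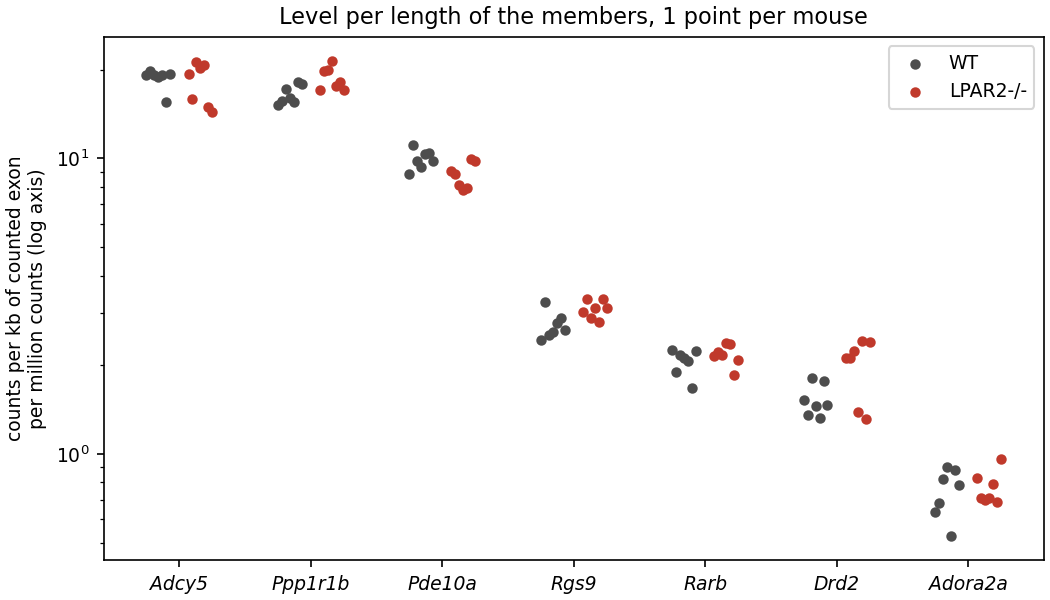
Level of each gene per mouse, as CPM per kb of counted exon on a log axis, for WT (grey) and mice labelled LPAR2-/- (red). Adcy5 and Ppp1r1b lie highest and Adora2a lowest in both genotypes.

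Drd2 (chr9:49340662-49407214 on mm10, plus strand) encodes the D2 dopamine receptor, which lowers cAMP through inhibitory G proteins. Its level per library in CPM had a lowest, median and highest value of 2.05, 2.27 and 2.79 in WT mice. In mice labelled LPAR2-/- these values were 2.03, 3.28 and 3.74 CPM. Of the 7 mice labelled LPAR2-/-, 5 lay above the highest WT mouse, while mouse 4 (2.15 CPM) lay in the lower part of the WT range and mouse 6 (2.03 CPM) just below it. The means were 3.09 ± 0.709 and 2.37 ± 0.291 CPM (SD, n = 7 each), a log2 fold change of 0.39 with a standard error of 0.150. Drd2 was counted with only 34 to 80 reads per library.

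Adora2a (chr10:75316877-75334792, plus strand) encodes the adenosine receptor of the 2A subtype, which raises cAMP and is coexpressed with Drd2 in the striatum. Its lowest, median and highest levels were 1.37, 2.04 and 2.35 CPM in WT mice and 1.79, 1.85 and 2.50 CPM in mice labelled LPAR2-/-. The ranges overlapped almost completely, and 1 mouse labelled LPAR2-/- exceeded the highest WT mouse. The means were 2.00 ± 0.257 and 1.95 ± 0.36 CPM (SD, n = 7 each), and the log2 fold change was 0.04 with a 95% interval from -0.25 to 0.33. Adora2a, which shares its striatal neurons with Drd2, therefore had no difference resolved from zero, while its interval still includes changes of the size measured for Ppp1r1b and Rgs9.

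Adcy5 (chr16:35155636-35304549, plus strand) encodes the adenylyl cyclase that makes most of the cAMP in striatal neurons. Its levels ranged from 78.8 over a median of 97.0 to 100.2 CPM in WT mice and from 73.0 over a median of 97.5 to 108 CPM in mice labelled LPAR2-/-. The WT mice were close to each other except for WT mouse 6, which stood apart as the lowest, while the mice labelled LPAR2-/- spread to both sides, with 3 above and 2 below all WT mice. The means were 91.7 ± 14.8 and 94.8 ± 7.18 CPM (SD, n = 7 each; log2 fold change -0.05, SE 0.0901). The 3 lowest levels of Adcy5 were those of the 3 libraries with the fewest counted reads, LPAR2-/- mouse 7 (73.0 CPM), LPAR2-/- mouse 6 (75.5 CPM) and WT mouse 6 (78.8 CPM), and the part of depth in this was not tested.

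Pde10a (chr17:8526801-8986648, plus strand) encodes a phosphodiesterase that degrades cAMP and cGMP and is highly enriched in medium spiny neurons. Its levels ranged from 72.3 over a median of 80.2 to 90.7 CPM in WT mice and from 64.0 over a median of 72.6 to 81.5 CPM in mice labelled LPAR2-/-. Its mean was lower in mice labelled LPAR2-/-, of which mice 3, 4 and 5 lay below the lowest WT mouse and none above the highest. The means were 71.9 ± 7.21 and 81.4 ± 6.11 CPM (SD, n = 7 each), a log2 fold change of -0.18 with a standard error of 0.0629.

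Ppp1r1b (chr11:98348738-98357795, plus strand) encodes DARPP-32, which inhibits protein phosphatase 1 once protein kinase A has phosphorylated it. Its levels ranged from 25.3 over a median of 26.7 to 30.3 CPM in WT mice and from 28.4 over a median of 30.2 to 35.8 CPM in mice labelled LPAR2-/-. Mice 2, 3 and 4 labelled LPAR2-/- lay above all WT mice, and the other 4 lay within the WT range. The means were 31.2 ± 2.79 and 27.5 ± 2.01 CPM (SD, n = 7 each), a log2 fold change of 0.18 with a standard error of 0.0611.

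Rgs9 (chr11:109225355-109298181, minus strand) encodes a regulator of G protein signalling that speeds up the switching off of inhibitory G proteins, including those of the D2 receptor. Its levels ranged from 20.7 over a median of 22.3 to 27.8 CPM in WT mice and from 23.8 over a median of 26.6 to 28.5 CPM in mice labelled LPAR2-/-. WT mouse 2 had the highest WT level and overlapped with the upper values of the other genotype, and 2 mice labelled LPAR2-/- were above it. The means were 26.3 ± 1.77 and 23.3 ± 2.38 CPM (SD, n = 7 each), a log2 fold change of 0.18 with a standard error of 0.0645. Without WT mouse 2 it was 0.23.

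Rarb (chr14:16430840-17082331, minus strand) encodes retinoic acid receptor beta, a nuclear receptor needed for the development of striatal neurons. Its levels ranged from 6.33 over a median of 7.95 to 8.51 CPM in WT mice and from 6.99 over a median of 8.14 to 8.96 CPM in mice labelled LPAR2-/-. The ranges overlapped widely, and the lowest mouse of each genotype was mouse 6. The means were 8.19 ± 0.668 and 7.75 ± 0.776 CPM (SD, n = 7 each; log2 fold change 0.08, SE 0.0785).

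**Figure D2:**
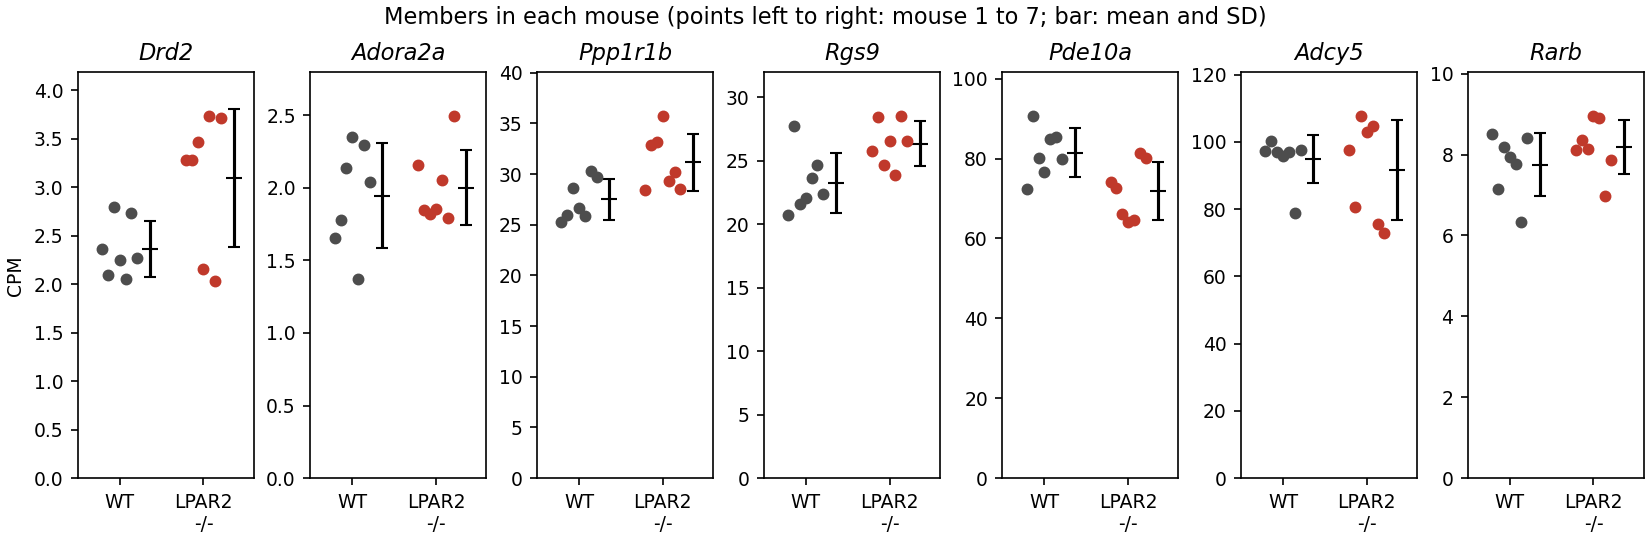
Level of each gene in CPM for every mouse, WT in grey and labelled LPAR2-/- in red, with the mean and SD beside the points and each axis starting at 0. Drd2 shows 5 mice labelled LPAR2-/- above the WT mice and 2 near their lowest values, and the genotypes overlap for every gene.

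In the fit across all genes, 0 of the 7 genes passed an adjusted p of 0.05 with edgeR, against 6.77% of all genes tested. DESeq2 and limma on the authors' normalized values also called 0 of 7, against 8.63% and 5.44% of the genes they tested. At an unadjusted p of 0.05, edgeR counted 4 of 7 (Drd2, Ppp1r1b and Rgs9 higher, Pde10a lower), against 22.4% of all genes. Of the 7, 5 had a log2 fold change above 0, against 51.1% of all genes, and their median was 0.08, against 0.00 over all genes. The ranges of the genotypes did not overlap for 0 of the 7 and for 1.77% of all genes. These counts describe genes that had been picked with this contrast in view. In bulk tissue, fewer cells of a type and less RNA per cell cannot be told apart.

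Other genes that mark striatal neurons were examined as a list of 34 genes in the table. Of the 28 that passed the filter on low counts, 14 were higher and 14 lower in mice labelled LPAR2-/-, the median log2 fold change was -0.01, and 1 passed the test in edgeR (6.77% of all genes). This gene was Rasd2, which encodes the striatum-enriched small GTPase Rhes, and it fell: its levels were 79.8 to 119.3 CPM in WT mice and 65.5 to 83.7 CPM in mice labelled LPAR2-/- (log2 fold change -0.42, SE 0.0826, adjusted p = 0.00820, 5 of 7 mice below all WT mice). Rasd2 lies at chr8:75213944-75224113, 5.39 Mb from the start of Lpar2. Within 10 Mb of Lpar2, 40 of 154 genes tested passed (26%). The summed level of the 34 genes was 1821 to 2241 CPM in mice labelled LPAR2-/- and 1831 to 2105 CPM in WT mice.

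The neuropeptides and receptors by which medium spiny neurons are classed showed no common direction. Drd1, the dopamine receptor of the direct pathway, had a log2 fold change of 0.18 (SE 0.138, adjusted p = 0.470 in edgeR), with 6.00 to 10.5 CPM in mice labelled LPAR2-/- and 4.79 to 7.42 CPM in WT mice. Penk, which encodes enkephalin and is expressed with Drd2 in the indirect pathway, had a log2 fold change of -0.07 (SE 0.129). Tac1, the precursor of substance P, had -0.24 (SE 0.136), and Pdyn, the precursor of dynorphin, 0.00 (SE 0.142). Neither Penk, which in striatum accompanies Drd2, nor the direct pathway peptides Tac1 and Pdyn passed the test. Per length, the WT medians of Penk (19.2) and Pdyn (19.3) were more than 10 times that of Drd2 (1.47).

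The 5 genes of this list with the highest levels were Gng7 and Gnal, which encode subunits of the G protein that couples striatal receptors to adenylyl cyclase, the calcium-dependent phosphodiesterase Pde1b, the transcription factor Bcl11b and the phosphoprotein Arpp21. Their log2 fold changes were 0.12 (SE 0.0933) for Gng7, -0.03 (SE 0.0645) for Gnal, 0.21 (SE 0.0830) for Pde1b, -0.05 (SE 0.103) for Bcl11b and -0.09 (SE 0.0387) for Arpp21. None of the 5 passed the test, with adjusted p-values in edgeR of 0.139 for Pde1b, 0.192 for Arpp21, 0.463 for Gng7, 0.824 for Bcl11b and 0.841 for Gnal. All 5 are also expressed in the hippocampus, and their lowest level in any library was 191 CPM.

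**Figure D3:**
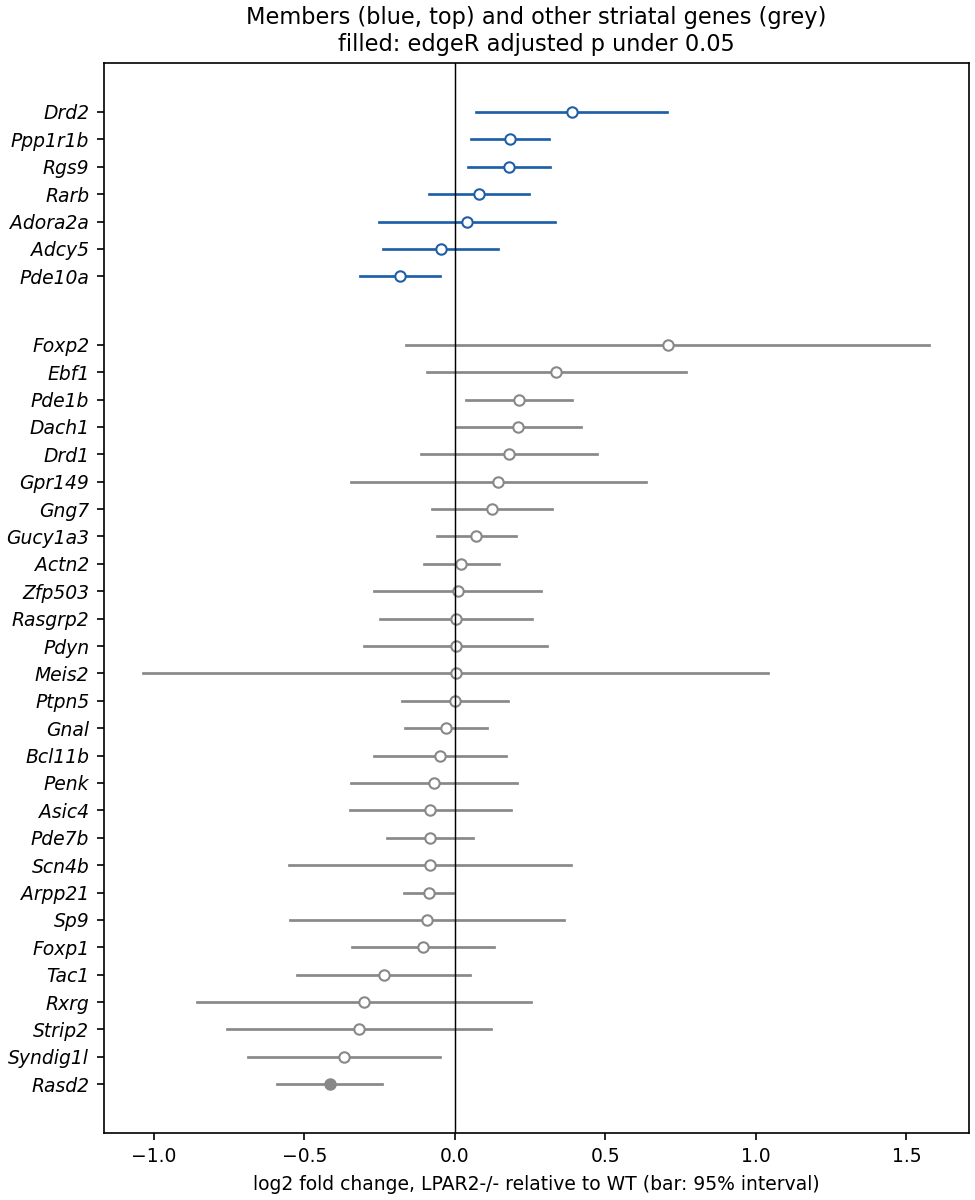
Log2 fold change of the 7 genes (blue, top) and of the 28 other striatal genes tested (grey), labelled LPAR2-/- relative to WT, with the 95% interval. Filled points passed an adjusted p of 0.05 in edgeR, which was the case for Rasd2 alone.

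Meis2, a homeobox transcription factor of striatal and other GABAergic neurons, varied widely between libraries, and it was singled out after its values had been seen. Its levels were 2.93 to 14 CPM in WT mice, with WT mouse 2 as the highest. In mice labelled LPAR2-/- they were 3.03, 3.74, 14.8, 13, 10.1, 1.73 and 2.88 CPM for mice 1 to 7. The genotypes overlapped, with a log2 fold change of 0.00 (SE 0.483). LPAR2-/- mice 3, 4 and 5, which had the highest Meis2 of their genotype, had its 3 lowest levels of Pde10a (66.2, 64.0 and 64.7 CPM), whereas WT mouse 2 had the highest WT levels of both genes. The same 3 mice had the 3 highest levels of Adcy5 among all 14 libraries (108, 103 and 105 CPM). In Ppp1r1b and Rgs9 all 7 mice labelled LPAR2-/- were above the WT median, and mice 5 and 3 had the 2 lowest Rgs9 levels of the genotype (23.8 and 24.6 CPM). These 3 mice also had the 3 lowest sums over the 34 striatal genes within their genotype, at 1838, 1907 and 1821 CPM. LPAR2-/- mouse 3 in addition had the highest sum of oligodendrocyte markers. The 3 libraries with the highest Meis2 of all 14, LPAR2-/- mice 3 and 4 and WT mouse 2, also had the 3 highest sums of septal markers (81.6, 75.8 and 73.9 CPM). The part of these features in the levels of Pde10a and Adcy5 was not tested. Of these 3 mice, mice 3 and 5 had high Drd2 (3.46 and 3.74 CPM) and mouse 4 low Drd2 (2.15 CPM). Of the other 4 mice labelled LPAR2-/-, mouse 6 had the lowest level of both genes, and mice 1, 2 and 7 had low Meis2 and high Drd2 (3.28, 3.28 and 3.71 CPM).

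Too few counts to be tested were found for 6 genes of the list, Gpr6, Isl1, Six3, Ido1, Sh3rf2 and Slc35d3. Isl1, a transcription factor of developing striatal and cholinergic neurons, had 13 counts in LPAR2-/- mouse 3, 1 count each in LPAR2-/- mice 4 and 5 and 0 counts in the other 11 libraries, including all WT libraries. A count of 0 allows up to 3 counts, which covers counting error only. Six3, a transcription factor of indirect pathway neurons, had up to 11 counts in mice labelled LPAR2-/- (mouse 4) and up to 5 in WT mice (mouse 7), and Gpr6, an orphan receptor of these neurons, had 3 to 11 and 2 to 14 counts. WT mouse 2, with the highest Meis2 of its genotype, had 0 counts of Isl1 and 1 of Six3.

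**Figure D4:**
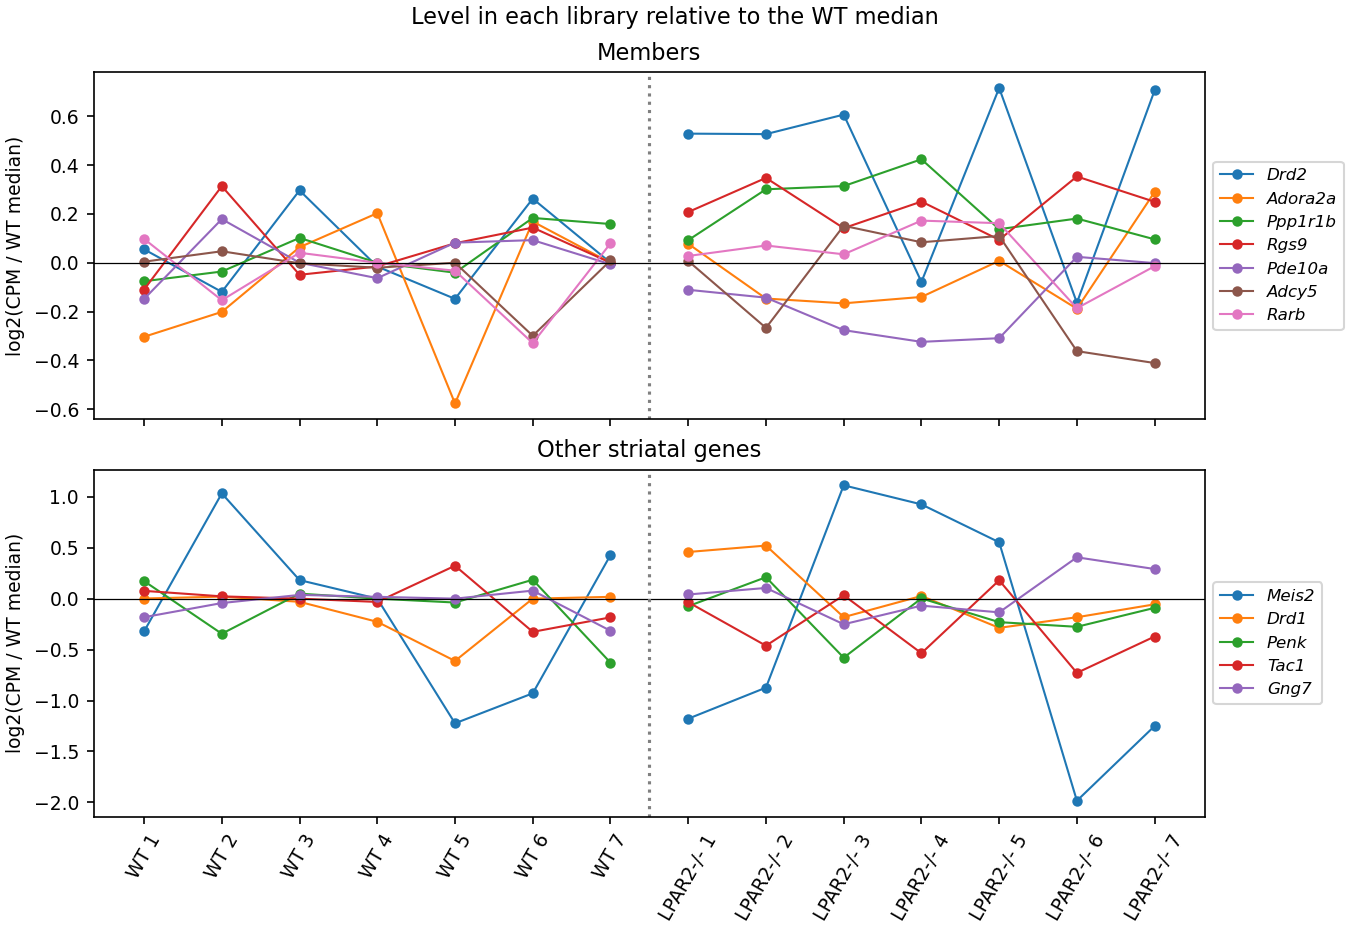
Log2 ratio of the level in each library to the WT median for the 7 genes (top) and for Meis2, Drd1, Penk, Tac1 and Gng7 (bottom), with lines joining the values of a gene and no order implied among mice. Meis2 is high in LPAR2-/- mice 3, 4 and 5, where the 7 genes have no common direction.

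Markers of the other cells and regions that a hippocampal dissection can hold were counted in the same way. Of 15 markers of hippocampal neurons, all were tested, and their sum was 1828 to 2418 CPM in mice labelled LPAR2-/- and 1840 to 2627 CPM in WT mice. The fitted level was lower in mice labelled LPAR2-/- for 10 of them and higher for 5 (median -0.06 on the log2 scale), and 2 had an unadjusted p under 0.05. Only Tdo2, an enzyme of tryptophan breakdown and a marker of dentate granule cells, passed and rose, with a log2 fold change of 0.45 (SE 0.109, adjusted p = 0.0244 in edgeR, 6 of 7 mice above all WT mice). This call was lost without WT mouse 4 (adjusted p = 0.0526) or WT mouse 5 (adjusted p = 0.0535). Of the 4 markers of striatal cholinergic interneurons, Chat and Slc18a3 had 0 to 2 counts and Lhx8 had 0 in all 14 libraries. The choline transporter Slc5a7 was the only one tested, with 0.26 to 0.65 CPM in mice labelled LPAR2-/- and 0.24 to 1.05 CPM in WT mice, and did not pass. The list summed to 0.26 to 0.78 CPM and 0.28 to 1.05 CPM. Chat, Slc18a3 and Lhx8 also belong to the list of the septum. The other 4 septal markers had 0 calls, and 1 had an unadjusted p under 0.05 in edgeR. Of these 4, 3 were higher and 1 lower in mice labelled LPAR2-/- (median log2 fold change 0.29). Over all 7 septal markers, the sum was 56.7 to 81.6 CPM in mice labelled LPAR2-/- and 55.7 to 73.9 CPM in WT mice.

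The list of genes of dopamine neurons had 6 genes, of which 4 were tested and Th was at 0 to 3 counts. Of the 4, 2 were higher and 2 lower (median -0.02 on the log2 scale). Nr4a2 fell (log2 fold change -0.63, SE 0.109, adjusted p = 0.00320 in edgeR), with 18.5 to 22.8 CPM in mice labelled LPAR2-/- and 22.9 to 39.9 CPM in WT mice, and all 7 mice lay below the WT range. Nr4a2 is a transcription factor of dopamine neurons and is also induced by activity in the hippocampus. The other 3 tested genes had log2 fold changes of 0.44 (Slc6a3, the dopamine transporter), 0.01 (Ddc, which makes dopamine) and -0.05 (Slc18a2, the vesicular monoamine transporter), and did not pass. Markers of the thalamus (0 of 9 called), cortex (0 of 7), GABA neurons (0 of 11), endothelium (0 of 7), astrocytes (0 of 7) and microglia (0 of 6) had no calls and overlapping sums. An unadjusted p under 0.05, found for 22.4% of all genes, was seen for 4 of 7 cortex markers (4 higher and 3 lower of the 7) and for 1 each of the thalamus, endothelium and microglia. All 6 microglia markers were higher (median log2 fold change 0.11), with sums of 308 to 378 against 305 to 372 CPM.

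In the lists of 4 other cell types most markers were higher in mice labelled LPAR2-/-. Of 13 meningeal markers, 12 were higher in mice labelled LPAR2-/-, 0 passed in edgeR and 10 had an unadjusted p under 0.05. Their median log2 fold change was 1.09, and their sum was 113 to 533 CPM, against 85.1 to 385 CPM in WT mice. Of 13 choroid plexus markers, 7 were tested and all 7 were higher (median 0.43), with 0 calls, 3 at an unadjusted p under 0.05 and sums of 89.8 to 480 against 91.0 to 128 CPM. Of 8 mural cell markers, 5 were higher (median 0.39, 0 calls, 3 at an unadjusted p under 0.05), with sums of 172 to 362 against 126 to 310 CPM. Of 7 oligodendrocyte markers, 6 were higher (median 0.17), with 0 calls and 0 at an unadjusted p under 0.05, and sums of 996 to 4002 against 1231 to 2090 CPM. The part of these cells in the levels of the 7 genes was not tested.

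The wider pathway of the 7 genes was described by 10 further lists with 69 genes. Some of the 69 are also on the lists of other striatal genes or meningeal markers. In all, 62 were tested, of which 32 were higher in mice labelled LPAR2-/- and 30 lower. The median log2 fold change was 0.00, and the values ranged from -0.59 (Aldh1a1, which makes retinoic acid) to 1.20 (Crabp2, which binds it), both read off after the values had been seen. In edgeR 1 passed, against 6.77% of all genes. It was Prkaca, the main catalytic subunit of protein kinase A, which rose with a log2 fold change of 0.19 (SE 0.0482, adjusted p = 0.0257) from 185 to 233 CPM in WT mice to 223 to 252 CPM in mice labelled LPAR2-/-. Prkaca lies 14.2 Mb from the start of Lpar2, at chr8:83972978-83996442. Its adjusted p was above 0.05 after leaving out LPAR2-/- mouse 1 or 2 or WT mouse 2, 4, 5 or 6, with a highest value of 0.0612.

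Among the receptors, Drd1 and Drd5 were tested with 0 calls, while Drd3 and Drd4 had too few counts, and Adora1 and Adora2b had 0 calls with Adora3 untested. None of the 9 adenylyl cyclases, the 15 phosphodiesterases tested, the 3 catalytic subunits of protein phosphatase 1, the 4 G protein subunits or the 5 tested partners and relatives of Rgs9 passed. In the same order, 5, 8, 2, 1 and 4 of these were higher in mice labelled LPAR2-/-, and their medians were 0.03, 0.00, 0.04, -0.01 and 0.03. Of the 6 subunits of protein kinase A, 3 were higher and 1 passed, as given above for Prkaca. Of 5 other retinoic acid and rexinoid receptors, 1 was higher and 4 lower (median -0.17), and of 11 genes of retinoic acid synthesis and breakdown, 6 were higher (median 0.14). In edgeR 0 genes of these lists passed, with 2 and 4 at an unadjusted p under 0.05, while DESeq2 called Aldh1a1 (lower) and Stra6 (higher), which encodes a retinol transporter.

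Whether the 7 genes varied together among mice of a genotype does not depend on how they were chosen by genotype, and was examined with an exact permutation test (two-sided, n = 7 per genotype). Each gene was first related to the mean log2 CPM of the 28 other striatal genes. Of these 14 relations, 0 passed an adjusted p of 0.05 (lowest 0.0870), and 5 had an unadjusted p under 0.05, of which 4 were in mice labelled LPAR2-/-. Adcy5 had r = 0.84 in these mice (rho = 0.79, exact permutation p = 0.0187, adjusted p = 0.0870), which was 0.82 without the 2 mice farthest from the median. Rarb had r = 0.87 (rho = 0.75, exact permutation p = 0.00833, adjusted p = 0.0870) and 0.96 without such mice. Pde10a had the opposite sign, with r = -0.84 (rho = -0.86, exact permutation p = 0.0183, adjusted p = 0.0870) and -0.93 without such mice, and so did Rgs9 with r = -0.81 (rho = -0.79, exact permutation p = 0.0252, adjusted p = 0.0882) and -0.44. In WT mice, r ranged from -0.59 for Ppp1r1b to 0.77 for Adcy5. The value of Adcy5 (rho = 0.39, exact permutation p = 0.0417, adjusted p = 0.117) turned to -0.91 without the 2 mice farthest from the median and thus rested on these mice.

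These signs depended on how the striatal genes were combined. With their summed CPM, to which the abundant genes contribute most, the relations of all 4 genes turned: r was 0.97 for Pde10a (adjusted p = 0.0264, exact permutation) and -0.93 for Adcy5 (adjusted p = 0.0264, exact permutation), 0.78 for Rgs9 (adjusted p = 0.128, exact permutation) and -0.82 for Rarb (adjusted p = 0.0843, exact permutation). The mean of log values counts sparse and abundant genes alike, so that genes with a wide spread between mice, such as Meis2, contribute more to its variation. The part of Meis2 in these relations was not tested. For the other 3 genes in mice labelled LPAR2-/-, r with the summed CPM was -0.33 for Drd2, 0.25 for Adora2a and -0.41 for Ppp1r1b, and none of these had an unadjusted p under 0.05.

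Among the 7 genes themselves, 21 pairs were examined in each genotype, a family of relations that was added after the data had been seen. Of 42 relations, 0 passed an adjusted p of 0.05 (lowest 0.104) and 3 had an unadjusted p under 0.05. Rgs9 and Pde10a, whose log2 fold changes had opposite signs, had r = 0.93 in WT mice (rho = 0.89, exact permutation p = 0.00278, adjusted p = 0.104), which was 0.90 without the 2 mice farthest from the median, and r = 0.64 in mice labelled LPAR2-/-. Pde10a and Rarb had r = -0.86 in mice labelled LPAR2-/- (rho = -0.96, exact permutation p = 0.00496, adjusted p = 0.104, -0.77 without such mice) and -0.71 in WT mice. Pde10a and Adcy5 had r = -0.90 in mice labelled LPAR2-/- (rho = -0.79, exact permutation p = 0.0183, adjusted p = 0.256, -0.86 without such mice) but -0.18 in WT mice.

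In both genotypes, r was above 0.5 for 3 pairs, Rgs9 with Pde10a, Drd2 with Adora2a (0.62 in WT mice and 0.58 in mice labelled LPAR2-/-) and Adcy5 with Rarb (0.76 and 0.68). It was below -0.5 in both for 2 pairs, Rarb with Rgs9 (-0.74 and -0.55) and Rarb with Pde10a. Ppp1r1b and Adora2a went together in WT mice (0.67) and in opposite directions in mice labelled LPAR2-/- (-0.71), and neither value passed the test. Pairs of both signs were thus found in each genotype.

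**Figure D5:**
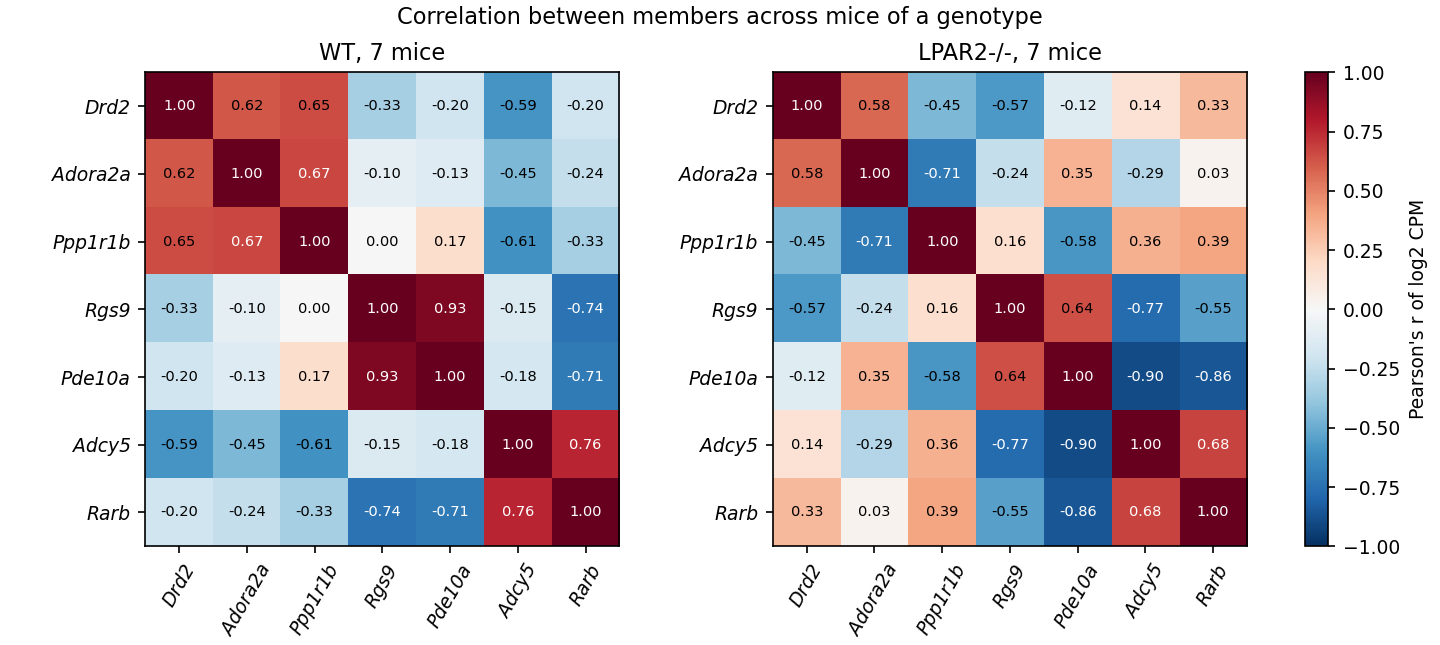
Pearson's r of log2 CPM between the 7 genes over 7 WT mice (left) and 7 mice labelled LPAR2-/- (right), with red for positive and blue for negative values. Rgs9 with Pde10a, Drd2 with Adora2a, and Adcy5 with Rarb are above 0.5 in both panels, and no relation passed the adjusted test.

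The genes with the most similar pattern over the 14 libraries were sought after the mean of each genotype had been removed. None was among the other striatal genes, but these are only 28 of 14897 genes tested, so that few would be met by chance. For Adcy5 the most similar genes were Tenm4 (r = 0.96), Adgb (0.95) and Chst8 (0.95), and for Pde10a they were Usp1 (0.95), Slc1a1 (0.93) and Ppil4 (0.92). For Rarb they were Clec18a (0.90), Gm715 (0.89) and Sigirr (0.89), and for Rgs9 they were Pm20d2 (0.87), Kdm6a (0.84) and Dcp1b (0.83). For the receptors they were Rfxank (0.87), Spdl1 (0.83) and Vav1 (0.80) for Drd2 and Thap7 (0.84), Sema3c (0.83) and Xpa (0.82) for Adora2a. For Ppp1r1b they were Ptges3l (0.83), Hint3 (0.81) and Klhl33 (0.80). For the mean over the 7 genes they were Tom1 (0.89), Zfp809 (0.88), Gm10638 (0.86), Ccdc186 (0.85) and Rgs6 (0.82), of which Rgs6 encodes a relative of Rgs9. These values are the highest among all genes tested, share libraries and depth, and are given without a test.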

How the data were processed

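RNA of hippocampi from 7 mice labelled LPAR2-/- and 7 WT mice was sequenced by the authors. The methods name depletion of ribosomal RNA, whereas the labels give the catalogue number of another TruSeq kit, so whether the libraries kept strand is uncertain. The deposited count table holds reads trimmed with cutadapt 1.18, aligned with STAR to mm10 and assigned to the exons of genes by featureCounts 1.6.3, set for the reverse strand, without reads matching several genes or places. In the deposited table of normalized values (16509 entries), 99.9% of 192436 values lay within 1% of signal recomputed from the counts with DESeq2 size factors and gene length, after lost decimal points had been restored. The deposited log2 values were not used, and 0 value columns were left unmapped.

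Counts were tested with edgeR 4.0.16 (R 4.3.3; filterByExpr, TMM, robust quasi-likelihood test, Benjamini-Hochberg adjustment over 14897 genes, genotype as the only term). CPM used TMM library sizes, and log2 CPM a prior count of 2. Alternatives were DESeq2 1.42.0, DESeq2 size factors, the upper quartile, no filter, at least 10 counts in every library, limma 3.58.1 on the authors' normalized values (over 0.06 in at least 3 libraries of each genotype) with a pseudocount of 1 or none, the mouse number as a block, each mouse left out, and for correlations a prior count of 0.5 or the summed CPM.

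The 7 genes and the 26 lists were chosen with earlier results of these data known. The genes named were the 7 genes, Lpar2, genes of the lists that passed the test, the 5 most abundant and the untested of the other striatal genes, and the 3 genes most like each of the 7 (5 for their mean). Meis2, Drd1, Drd3, Drd4, Drd5, Adora1, Adora2b, Adora3, Penk, Tac1, Pdyn, Aldh1a1, Crabp2, Stra6, Chat, Slc18a3, Lhx8, Slc5a7, Slc6a3, Ddc, Slc18a2 and Th were named in addition, after their values had been seen. Results for 2 genes are not reported here. The tests had been tried on simulated data. The deposited design text calls the mice biological replicates, and the main fit treated same-numbered mice as unpaired.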

Additional observations from a re-analysis of the deposited data

Results flagged for a closer look

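In 82 groups of 7 mice that were examined for a single mouse standing apart from the other 6, 4 were found, and chance alone gives about 1 in 20. Adcy5 in WT mice was lowest in WT mouse 6 at 78.8 CPM, and the nearest mouse had 95.7 CPM. The summed level of choroid plexus markers in mice labelled LPAR2-/- was 480 CPM in mouse 2, with 174 CPM in the nearest mouse. The sum of meningeal markers in WT mice was 385 CPM in mouse 4, with 195 CPM in the nearest mouse. The sum of oligodendrocyte markers in mice labelled LPAR2-/- was 4002 CPM in mouse 3, with 2012 CPM in the nearest mouse. The causes were not tested.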

How the results depend on the processing

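None of the 7 genes changed direction or passed an adjusted p of 0.05 under the other tests, scalings, filters or the mouse number as a block. On normalized values plus 1, limma gave smaller log2 fold changes for the low genes Drd2 (0.23, against 0.39), Adora2a (0.02, against 0.04) and Rarb (0.05, against 0.08), and 0.36, 0.05 and 0.08 with no pseudocount. With the upper quartile Adcy5 was at -0.03, against -0.05. Leaving out each mouse in turn gave log2 fold changes of 0.34 to 0.46 for Drd2, 0.15 to 0.21 for Ppp1r1b, 0.15 to 0.23 for Rgs9, -0.21 to -0.15 for Pde10a and 0.04 to 0.11 for Rarb. Adora2a ranged from -0.030 to 0.094 and reversed without LPAR2-/- mouse 7 (-0.015) or WT mouse 5 (-0.030), and Adcy5 ranged from -0.090 to 0.00061 and reversed without LPAR2-/- mouse 7. In these fits 0 to 1 of the 7 genes passed, Rgs9 without WT mouse 2 (adjusted p = 0.0370) and Pde10a without WT mouse 1 (adjusted p = 0.0467). Over all genes, 275 to 660 were higher and 292 to 725 lower, against 494 and 515 with all mice, with the fewest without WT mouse 2 and the most without WT mouse 1. Other striatal genes passing remained at 1, and pathway genes at 0 to 2. DESeq2 called 3 pathway genes (Prkaca, Aldh1a1 and Stra6), and the upper quartile 2 pathway genes. With the upper quartile, 62.0% of the genes called were higher, against 49.0% with TMM. With the summed CPM, 2 correlations with the other striatal genes passed. The causes were not tested.

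Same-numbered mice of the genotypes were correlated at -0.33 to 0.31 after removal of the genotype means, over 0.1 for 3 of 7 numbers. Of 14 mice, 5 correlated best with their own number, which is more than random matching gives on average. These values do not decide whether the shared numbers mark pairs. With the replicate block, 314 genes were higher, 272 lower and 3 pathway genes passed. The lowest chi-square per degree of freedom between 2 libraries of a genotype was 3.29 over 42 pairs, so none were copies. Low counts limit Drd2 and Adora2a, with 28 to 80 counts per library, and 7 mice per genotype limit the correlations.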
